A study of Homo sapiens with 21 samples.

Results

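The hematopoietic growth factor receptors are the surface proteins through which myeloid cells receive the cytokines that keep them alive and direct their growth. The genes were taken by name, as those encoding the receptors for GM-CSF, IL-3, IL-5, G-CSF, M-CSF, FLT3 ligand, stem cell factor and erythropoietin: CSF2RA, IL3RA, IL5RA, CSF2RB, CSF3R, EPOR, CSF1R, FLT3 and KIT. These are 9 of the 58174 gene identifiers in the deposited files, and the rule uses gene names and no measured value, although it was written with earlier results of these data known. All 9 are described here in 21 libraries of OCI-AML5, a human acute myeloid leukemia cell line, sequenced as polyA RNA with 3 libraries in each of 7 groups.

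They are of more than 1 kind. GM-CSF, IL-3 and IL-5 each bind an alpha chain of their own (CSF2RA, IL3RA, IL5RA), which then pairs with the common beta chain CSF2RB, the chain that carries the bound JAK kinase and most of the signal. CSF3R and EPOR, the receptors of G-CSF and erythropoietin, belong to the same class I cytokine receptor family but work as pairs of a single chain, whereas CSF1R, FLT3 and KIT are receptor tyrosine kinases of the platelet-derived growth factor receptor type. In myeloid cells, CSF1R and CSF3R mark the monocytic and granulocytic lineages, FLT3 and KIT mark progenitors, EPOR is best known from red cell precursors, and IL3RA (CD123) is a common surface marker of leukemic blasts.

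Control cells, without an EPCR guide, were kept in DMSO, the vehicle (labelled 72 h), or in UM171, a small molecule that expands hematopoietic stem cells, at 500 nM per the labels for 6, 24, 48 or 72 h. The study's text gives a lower dose of UM171 for this line, and which was used could not be settled. sgEPCR cells, a clone by the labels, express a guide RNA against EPCR, the protein C receptor encoded by PROCR, and were kept in DMSO (labelled 24 h) or in UM171 for 24 h. All groups share the parental line. The study's text speaks of several independent sgEPCR clones, and of control cells with a guide against AAVS1, a neutral locus, neither of which the labels state for a library. DMSO of a single labelled time serves as the baseline of every UM171 time. The labels name no guide for the control cells, call the edited cells both EPCR null and EPCR knockdown, and give DMEM with serum as the medium, while the study's methods give GM-CSF as a supplement of the medium of these cells, so a ligand of CSF2RA may have been present throughout. The labels do not tell whether libraries of a group are separate cultures, so p-values measure the spread between these libraries, which may be technical.

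Total expected counts lay between 24.3 and 51.5 M per library. PROCR, the targeted gene, had 3.37 to 4.30 TPM in DMSO and 48.5 TPM in each of the 3 control libraries at 24 h of UM171, against 2.30 to 4.53 TPM in sgEPCR cells in DMSO and 4.23 to 8.94 in UM171. Its transcript can remain after an edit of the coding sequence. In 2 libraries, sgEPCR DMSO replicate 1 and sgEPCR UM171 replicate 2, mitochondrial genes took 35.9% and 32.2% of counts, against 7.73% to 13.5% in the other 19. TPM (a level corrected for transcript length and library depth) of the receptors was lower in both than in the other libraries of their groups for every tested receptor, so sgEPCR results of the receptors are given with and without them. Of the myeloid marker list, LYZ (357 to 1814 TPM), PTPRC (102 to 579) and CD33 (34.6 to 179) were present in every library. ELANE and CD14, also on that list, stayed under 0.5 TPM. The globin genes HBA1, HBA2, HBB, HBG1 and HBG2, markers of red cell precursors, stayed under 1 TPM in every library. The mast cell and basophil list (TPSAB1, CPA3, HDC, MS4A2) summed to between 9.67 and 11.3 TPM in DMSO and between 197 and 203 at 72 h, with MS4A2 at 0.27 or less throughout, and in sgEPCR cells it went from between 1.3 and 1.63 to between 35.4 and 54.5. The eosinophil list summed to between 10.6 and 13.1 TPM in DMSO and between 203 and 246 at 72 h, nearly all of it PRG2, with EPX and CLC under 0.2. The rise was not confined to these lists. At 72 h the log2 fold change was 4.01 for the 1 megakaryocyte gene tested and 5.30 for the 1 T cell gene. The median was 2.70 for 2 B cell genes and 4.09 for 3 non-blood genes. Of 8 myeloid genes tested, 4 rose and 3 fell, with a median of 0.125. The mast cell and eosinophil sums move with the later times. The part of any of these lists in the receptor changes was not tested. In bulk RNA, fewer cells that express a gene and less RNA per cell cannot be told apart.

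Upstream sequences are shown for 4 receptors, CSF2RA and IL3RA, which lie close to each other in the pseudoautosomal region of X, and FLT3 and CSF1R, which moved in opposite directions after 48 and 72 h. Each run holds the 250 bases before the RefSeq start (GRCh38.p14), read along the gene. Capitals mark GAGGAA, the core of the site of the myeloid factor PU.1, in CSF2RA, CSF1R and FLT3 (in FLT3 it lies on the other strand and reads TTCCTC), and TTCNNNGAA, the STAT element, in IL3RA. Of the 2 RefSeq starts of CSF1R, the downstream one is shown.
CSF2RA, chrX:1268564-1268813, plus strand: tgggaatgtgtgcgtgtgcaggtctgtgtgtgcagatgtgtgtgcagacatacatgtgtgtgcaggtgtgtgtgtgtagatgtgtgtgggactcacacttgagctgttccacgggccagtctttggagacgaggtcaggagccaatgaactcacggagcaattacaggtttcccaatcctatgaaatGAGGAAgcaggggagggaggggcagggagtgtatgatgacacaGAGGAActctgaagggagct
IL3RA, chrX:1336535-1336784, plus strand: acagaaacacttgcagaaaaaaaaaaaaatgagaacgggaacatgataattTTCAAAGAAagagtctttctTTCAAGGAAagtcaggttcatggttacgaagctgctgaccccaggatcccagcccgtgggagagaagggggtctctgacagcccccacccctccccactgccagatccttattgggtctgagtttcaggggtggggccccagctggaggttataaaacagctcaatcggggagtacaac
CSF1R, chr5:150086555-150086804, minus strand: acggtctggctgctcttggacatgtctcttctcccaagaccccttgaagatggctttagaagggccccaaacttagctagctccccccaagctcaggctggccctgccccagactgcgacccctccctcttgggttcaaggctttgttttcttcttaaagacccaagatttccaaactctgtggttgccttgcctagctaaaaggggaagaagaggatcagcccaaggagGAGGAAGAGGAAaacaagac
FLT3, chr13:28100577-28100826, minus strand: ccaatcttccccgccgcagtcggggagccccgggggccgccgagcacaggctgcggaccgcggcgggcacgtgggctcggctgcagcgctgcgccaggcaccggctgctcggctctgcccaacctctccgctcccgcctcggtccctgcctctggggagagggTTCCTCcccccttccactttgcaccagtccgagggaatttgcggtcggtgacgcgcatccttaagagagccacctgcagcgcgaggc

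On either strand of these 250-base windows, GAGGAA was found in 4 of the 8 receptors that have an entry (CSF2RA, CSF3R, CSF1R, FLT3), while 23.6% of all 34943 promoter entries hold it. Receptors are counted by gene, a match in any entry sufficing, and the shares by entry. CSF3R and CSF1R have a further entry each, so the count and the share are not like for like. CSF2RA holds it at -63 and -20 from the start, and CSF1R as an adjoining pair at -20 and -14. TTCNNNGAA stands at -199 and -179 of IL3RA, and 6.56% of all promoters hold it. The motifs TGTGGT (RUNX, 10.99% of promoters) and TGANTCA (AP-1, 6.59%) were found in CSF1R alone. TGTGGT lies in the CSF1R run shown, and TGANTCA before the upstream start, which is not shown. The site of the erythroid and mast cell factors GATA1 and GATA2, searched as AGATAA, is held by 9.19% of promoters and was found in EPOR alone. TATAAA (10.8%) was found in IL3RA and CSF3R, and the NF-kB motif (1.40%) in none. In CSF3R, TATAAA and GAGGAA lie before different starts. A match describes the letters only. No library here measured binding, and the motifs were chosen with the receptors in mind.

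Of the 9 receptors, 7 had enough counts to be tested. By TPM, CSF3R was the most abundant in DMSO at 89.5 ± 2.58 (SD, n = 3 here and below), followed by IL3RA at 27.8 ± 1.16 and CSF1R at 24.2 ± 1.93. The ranges of the latter pair did not overlap, nor did those of CSF2RB (14.6 ± 0.56) and CSF1R, but those of CSF2RB and CSF2RA (13.0 ± 1.10) did. FLT3 stood at 4.06 ± 0.0252 and EPOR at 2.04 ± 0.378. KIT and IL5RA were at or near 0. CSF3R alone made up 51.1% of the summed receptor TPM in DMSO, 30.3% at 24 h and 43.4% at 72 h. The summed level was between 168 and 179 TPM in DMSO, between 130 and 144 at 24 h and between 305 and 324 at 72 h.

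**Figure D1:**
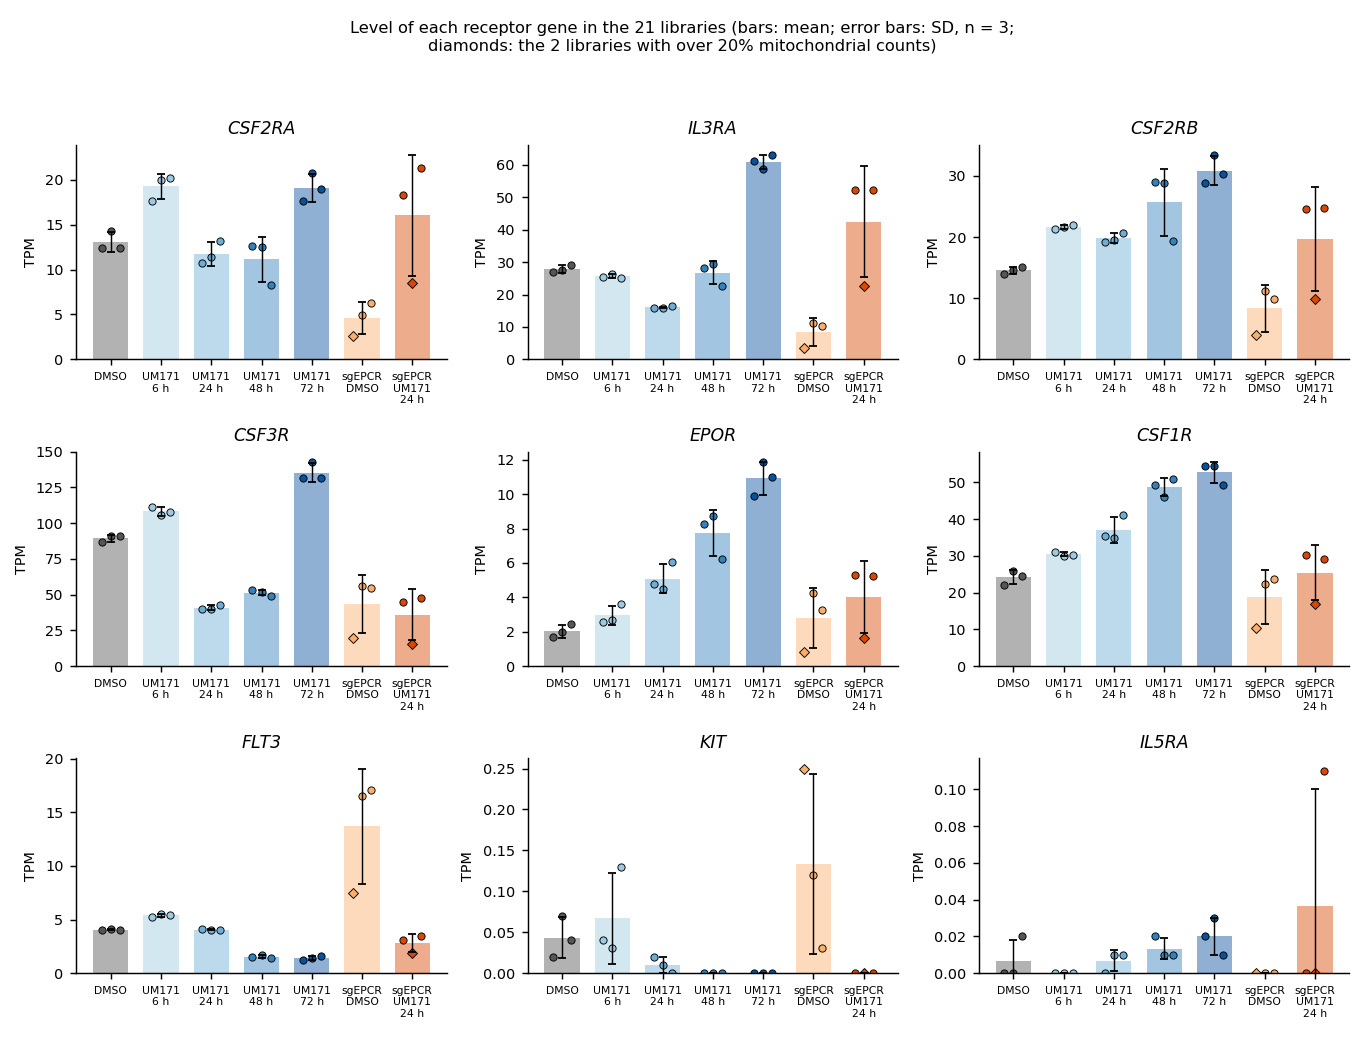
TPM of each receptor gene (vertical axes, each from 0) in the 7 groups, with bars for the mean, error bars for the SD of 3 libraries and a point for each library; diamonds are the 2 sgEPCR libraries with over 20% mitochondrial counts. EPOR and CSF1R step upward through the UM171 times, FLT3 falls at 48 and 72 h and is highest in sgEPCR DMSO, and the axes of KIT and IL5RA end under 0.3 TPM.

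The first question was how each receptor moved over the time course against DMSO. After 72 h, 6 of the 7 tested receptors were higher and FLT3 was lower. The counts at each time are read against all 16595 genes tested, since a large part of the transcriptome moved. At an adjusted p under 0.05, 3 receptors were higher and 1 lower at 6 h (31.3% and 31.0% of all genes). The counts were 3 and 3 at 24 h (35.3% and 34.3%) and again 3 and 3 at 48 h (37.2% and 34.8%). After 72 h they were 6 and 1 (38.1% and 37.6%). By the stricter limits of an adjusted p under 0.0001 and over 2-fold, 6 h gave 0 (6.90% of all genes), 24 h gave 2 (13.7%), 48 h gave 2 (16.4%) and 72 h gave 3 (20.8%). The median log2 fold change of the 7 receptors was 0.22 at 6 h and -0.07 at 24 h, beside 0.01 and 0.0002 over all genes. The result at 6 h turned on the scaling. Total counts instead of TMM moved the median of all genes to 0.20 and gave 6 receptors higher and 0 lower (44.8% and 14.7% of all genes), and upper quartile scaling gave 6 higher and 1 lower (38.3% and 22.3%).

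**Figure D2:**
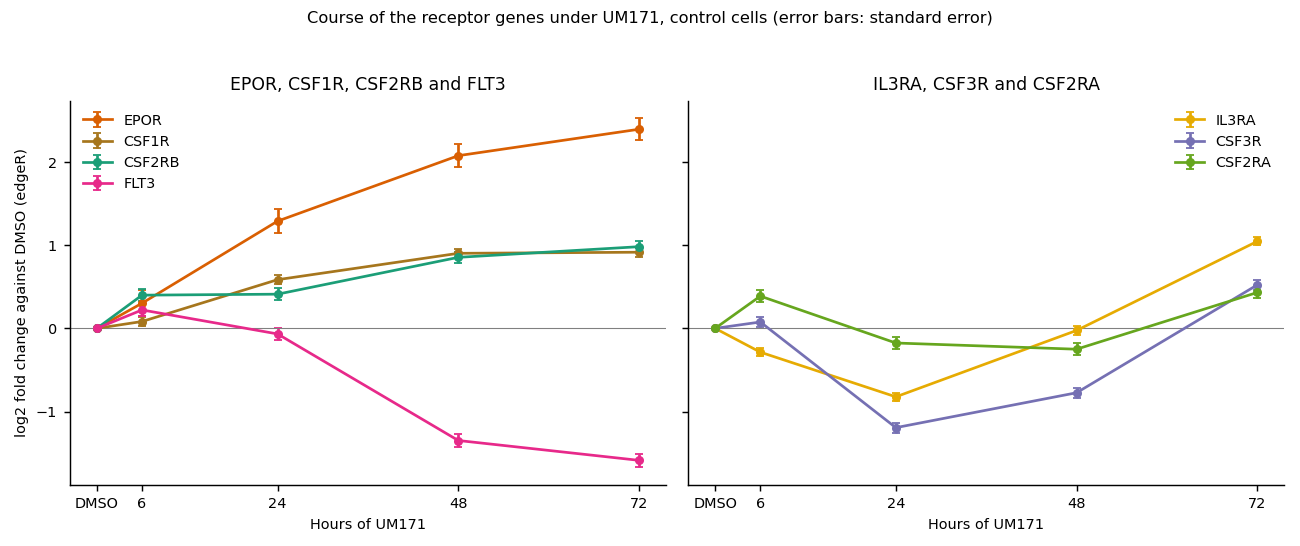
Log2 fold change of the 7 tested receptors against DMSO (vertical axis) by hours of UM171 (horizontal axis, DMSO drawn at 0), with standard errors as bars. EPOR, CSF1R and CSF2RB end above DMSO and FLT3 below it, whereas IL3RA and CSF3R are below DMSO at 24 h and above it at 72 h.

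EPOR (ENSG00000187266, chromosome 19 of GRCh38, 11377207 to 11384342) had the largest fold change of the 7 tested receptors in the time course. Its TPM was 1.69, 1.98 and 2.44 in DMSO, 2.57, 2.68 and 3.61 after 6 h, 4.75, 4.46 and 6.05 after 24 h, 8.24, 8.73 and 6.25 after 48 h, and 9.91, 11.84 and 10.99 after 72 h. The libraries of neighbouring times from 6 h on did not overlap. The log2 fold change was 1.29 at 24 h (SE, the standard error, 0.14, adjusted p = 3.9e-07), 2.08 at 48 h (SE 0.14, adjusted p = 4.4e-10) and 2.40 at 72 h (SE 0.14, adjusted p = 3.7e-11), a 5.26-fold level. At 6 h it was 0.30 and did not pass (adjusted p = 0.1), although it passed by total count scaling (0.50, adjusted p = 0.014). The step from 48 to 72 h was 0.32 (adjusted p = 0.026), and it did not pass without the second 72 h library (0.27, adjusted p = 0.085). These levels rest on 74 to 525 counts per control library, and none of these globin genes reached 1 TPM in any of them.

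CSF1R (ENSG00000182578, chromosome 5, 150053291 to 150113372), the receptor of M-CSF and IL-34, rose by less, and its step from 48 to 72 h did not pass. It stood at 22.2, 26.0 and 24.4 TPM in DMSO, 31.2, 30.1 and 30.3 after 6 h, 35.4, 34.9 and 41.1 after 24 h, 49.2, 46.0 and 51.0 after 48 h, and 54.4, 54.5 and 49.4 after 72 h. All UM171 libraries lay above those in DMSO, and the 48 and 72 h libraries overlapped. At 6 h the log2 fold change was 0.08 and did not pass (adjusted p = 0.21), although it did by total count scaling (0.28, adjusted p = 0.00097). It was 0.59 at 24 h (SE 0.05, adjusted p = 4.6e-08) and 0.92 at 72 h (SE 0.05, adjusted p = 7.2e-11), while the step from 48 to 72 h was 0.01 (adjusted p = 0.85). CSF2RB (ENSG00000100368, chromosome 22, 36913628 to 36940439), the common beta chain, had risen by 6 h and did not move from 6 to 24 h beyond its error (0.01, adjusted p = 0.89). It stood at 14.0, 14.6 and 15.1 TPM in DMSO, 21.3, 21.6 and 21.9 after 6 h, 19.2, 19.6 and 20.7 after 24 h, 28.9, 28.8 and 19.3 after 48 h, and 28.9, 33.4 and 30.3 after 72 h. Every UM171 library was above every DMSO library, with a log2 fold change of 0.40 at 6 h (SE 0.07, adjusted p = 0.00011) and 0.98 at 72 h (SE 0.07, adjusted p = 7.8e-10).

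FLT3 (ENSG00000122025, chromosome 13, 28003274 to 28100592), the receptor of FLT3 ligand on progenitors and blasts, moved the other way, and late. It stood at 4.06, 4.09 and 4.04 TPM in DMSO, 5.26, 5.48 and 5.45 after 6 h, 4.08, 4.02 and 4.05 after 24 h, 1.51, 1.66 and 1.45 after 48 h, and 1.23, 1.43 and 1.58 after 72 h. The libraries at 24 h overlapped those in DMSO, and those at 48 and 72 h were all below them. The log2 fold change was -0.07 at 24 h (adjusted p = 0.42), -1.35 at 48 h (SE 0.08, adjusted p = 1.1e-10) and -1.59 at 72 h (SE 0.08, adjusted p = 9.7e-12), to 0.333 of the DMSO level. The rise at 6 h was 0.22 (adjusted p = 0.013) and did not pass without a filter on low counts (adjusted p = 0.15) or without the third DMSO or the second 6 h library (adjusted p = 0.058 and 0.069).

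IL3RA, CSF3R and CSF2RA fell from 6 to 24 h and rose from 48 to 72 h. IL3RA (ENSG00000185291, chromosome X, 1336616 to 1382689), which binds IL-3, stood at 26.9, 27.5 and 29.1 TPM in DMSO, 25.3, 26.3 and 25.2 after 6 h, 16.0, 15.9 and 16.3 after 24 h, 28.1, 29.4 and 22.7 after 48 h, and 61.1, 58.7 and 62.9 after 72 h. The lowest and the highest level among the control cells were thus 48 h apart, and neither group overlapped any other. The log2 fold change was -0.82 at 24 h (SE 0.05, adjusted p = 2.7e-10), -0.02 at 48 h (adjusted p = 0.67) and 1.05 at 72 h (SE 0.05, adjusted p = 2.5e-12). At 6 h it was -0.29 (adjusted p = 0.0001), a call lost with total count scaling (-0.09, adjusted p = 0.17). CSF3R (ENSG00000119535, chromosome 1, 36466043 to 36483278), the G-CSF receptor, stood at 86.5, 91.0 and 91.0 TPM in DMSO, 111, 105 and 108 after 6 h, 39.8, 40.0 and 42.7 after 24 h, 53.1, 51.8 and 49.4 after 48 h, and 132, 143 and 131 after 72 h. At 6 h its TPM lay above DMSO in every library while the TMM-scaled log2 fold change was 0.08 (adjusted p = 0.25), and it passed with total count scaling (0.27, adjusted p = 0.00028). Among the 7 receptors it had the largest fall at 24 h, -1.19 on the log2 scale (SE 0.06, adjusted p = 1.2e-11), and was above DMSO by 0.52 at 72 h (SE 0.06, adjusted p = 2e-07).

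CSF2RA (ENSG00000198223, chromosome X, 1268800 to 1310381), which binds GM-CSF, moved by less than 1.5-fold at every time. It stood at 12.4, 14.3 and 12.4 TPM in DMSO, 17.6, 19.9 and 20.2 after 6 h, 10.7, 11.3 and 13.2 after 24 h, 12.6, 12.5 and 8.28 after 48 h, and 17.6, 20.7 and 19.0 after 72 h. The 6 and 72 h libraries were above all others of the time course and overlapped each other. The log2 fold change was 0.39 at 6 h (SE 0.07, adjusted p = 0.00018), -0.25 at 48 h (adjusted p = 0.0067) and 0.43 at 72 h (SE 0.07, adjusted p = 3.5e-05). At 24 h it was -0.18 (adjusted p = 0.044), and this call was lost in most alternatives, such as without the first DMSO library (-0.15, adjusted p = 0.11). The call at 48 h was lost with limma on log2(TPM + 1) (-0.23, adjusted p = 0.15), and the 48 h libraries overlapped those in DMSO.

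The neighbouring times were also compared directly. From 6 to 24 h, 2 receptors rose and 4 fell (33.5% and 33.5% of all genes), with log2 changes of -1.27 for CSF3R and -0.54 for IL3RA (adjusted p = 1e-11 and 9.6e-08). From 24 to 48 h, 5 rose and 1 fell (23.2% and 22.5%), the fall being FLT3 at -1.28 (adjusted p = 2.2e-09). From 48 to 72 h, 4 rose and 1 fell (26.3% and 31.0%), with CSF3R up by 1.30 and IL3RA by 1.07 (adjusted p = 2.5e-11 and 2.9e-11). FLT3 fell by 0.24 in that step (adjusted p = 0.045), a call that was lost in most alternatives (DESeq2 adjusted p = 0.14), and total count and upper quartile scaling each gave 5 higher and 0 lower.

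KIT (ENSG00000157404, chromosome 4, 54657267 to 54740783), the stem cell factor receptor, and IL5RA (ENSG00000091181, chromosome 3, 3066324 to 3126613) had too few counts to pass the filter. KIT had 3, 8 and 5 counts in DMSO, 5, 3 and 3 after 6 h, 3, 1 and 0 after 24 h, and 0 in all 6 libraries at 48 and 72 h. Taking 3 counts over the group as the most that 0 allows, KIT was 5.28-fold lower at 48 h and 5.28-fold lower at 72 h than in DMSO. This floor covers the counting error of the 0 only. It takes the 16 counts in DMSO as exact, so the fold is not a lower limit. Without a filter on low counts, edgeR gave adjusted p = 0.00051 at 48 h and 0.00035 at 72 h. IL5RA had between 0 and 4 counts in every library, too few to compare.

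The alpha chains were set against the beta chain they share, as the ratio of TPM within a library. The ratio of IL3RA to CSF2RB was 1.91 ± 0.0181 in DMSO, 1.19 ± 0.0346 after 6 h, 0.810 ± 0.0217 after 24 h, 1.06 ± 0.106 after 48 h and 1.98 ± 0.197 after 72 h. It fell to 0.423 of the DMSO value by 24 h, with no overlap, and at 72 h the libraries overlapped those in DMSO (1.76 to 2.12 against 1.89 to 1.93). The ratio of CSF2RA to CSF2RB was 0.896 ± 0.0820 in DMSO, 0.891 ± 0.0555 after 6 h, 0.591 ± 0.0421 after 24 h, 0.434 ± 0.00403 after 48 h and 0.619 ± 0.00758 after 72 h, below DMSO in all 9 libraries from 24 h on. In the two-sided exact permutation test each separated pair gave p = 0.1, the smallest that 3 libraries against 3 allow. Transcript ratios do not measure the protein chains at the surface.

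**Figure D3:**
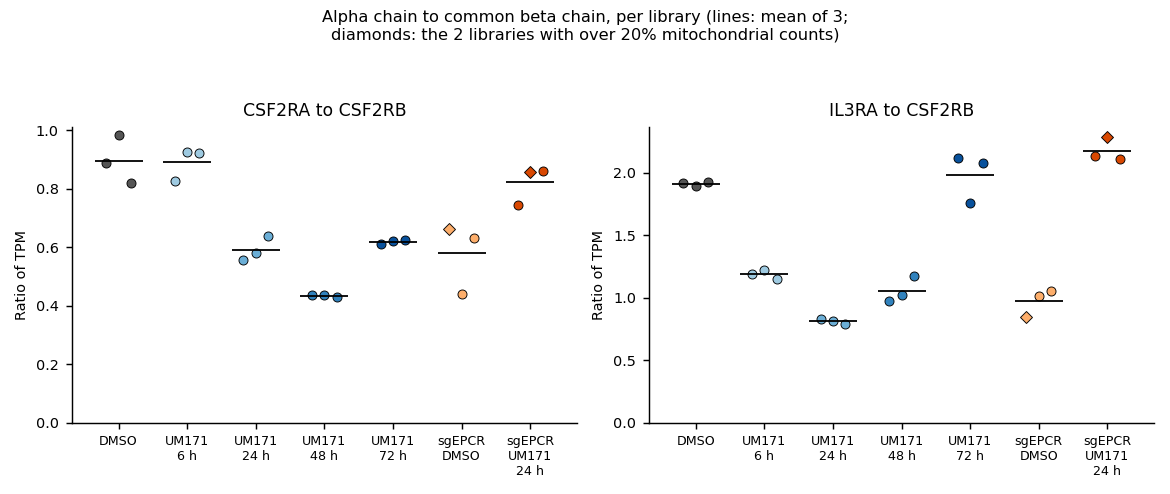
Ratio of CSF2RA (left) and IL3RA (right) to CSF2RB TPM in each library, by group, with a line at the mean of 3; diamonds are the 2 libraries with over 20% mitochondrial counts. The IL3RA ratio is lowest at 24 h of UM171 in control cells (0.810) and highest in sgEPCR cells at 24 h (2.18).

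The next question was how these receptors differed between sgEPCR and control cells. In DMSO, sgEPCR cells had less CSF2RA and IL3RA and more FLT3 than control cells. Of the 7 receptors, 2 were higher and 4 lower (17.4% and 16.3% of 15901 genes), and 3 passed the stricter limits (2.84% of all genes). FLT3 had 7.47, 16.5 and 17.1 TPM in sgEPCR DMSO, all above the 4.04 to 4.09 of control DMSO, a log2 difference of 2.17 (SE 0.08, adjusted p = 2.1e-07). IL3RA had 3.38, 11.3 and 10.4 TPM, below every control library, with a log2 difference of -1.40 (SE 0.15, adjusted p = 6.7e-05). CSF2RA had 2.64, 4.94 and 6.24 TPM, with a log2 difference of -1.23 (SE 0.11, adjusted p = 1.7e-05). The first library of each set is the one with 35.9% mitochondrial counts. Without both such libraries the differences were 2.16 for FLT3, -1.25 for IL3RA and -1.17 for CSF2RA. The sgEPCR and control DMSO libraries carry different times in the labels (24 and 72 h), so time and genotype cannot be told apart in this comparison, nor can the edit and the choice of clones.

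The remaining differences in DMSO were smaller. The log2 difference was -0.70 for CSF3R (adjusted p = 0.004) and -0.42 for CSF2RB (adjusted p = 0.01), and neither passed with limma on log2(TPM + 1) (adjusted p = 0.13 and 0.19). EPOR was higher by 0.68 (adjusted p = 0.025), a call lost with limma (adjusted p = 0.77), with total count scaling (adjusted p = 0.34) and without any of 4 single libraries. The difference for CSF1R was -0.25 (adjusted p = 0.37). Without the libraries rich in mitochondrial counts these were -0.60 for CSF3R, -0.36 for CSF2RB, 0.80 for EPOR (adjusted p = 0.0014) and -0.07 for CSF1R. Total count scaling moved the median of all genes to -0.25 in this comparison. In the 2 libraries rich in mitochondrial counts the mean transcript length that RSEM gave for EPOR was 2370 and 2360 bases, against 1634 to 1839 in the other sgEPCR libraries, and for CSF1R 2114 and 2112 against 3134 to 3649. Among control cells, the third 48 h library (13.5% mitochondrial counts) had 2288.5 bases for EPOR, against 1958.5 and 1904.6 in the others of its group. For CSF1R it had 2703 against 3498 and 3549. TPM divides by that length, and its part in these values and in those of the time course was not tested.

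In sgEPCR cells, 24 h of UM171 raised IL3RA, CSF2RA and CSF2RB and lowered FLT3 and CSF3R. Of the 7 receptors, 3 rose and 2 fell (27.0% and 25.1% of all genes), and 3 passed the stricter limits (10.3%). IL3RA reached 52.2, 22.6 and 52.4 TPM and CSF2RA 18.3, 8.48 and 21.3, all above every sgEPCR DMSO library. The log2 fold changes were 2.08 for IL3RA (SE 0.16, adjusted p = 1.4e-06) and 1.60 for CSF2RA (SE 0.11, adjusted p = 7.1e-07). FLT3 had 3.12, 1.86 and 3.42 TPM, below every sgEPCR DMSO library, a log2 change of -2.50 (SE 0.09, adjusted p = 8.6e-09) to 0.177 of the level. Without the libraries rich in mitochondrial counts the values were 2.06, 1.63 and -2.54. CSF2RB rose by 0.98 (adjusted p = 2e-05), from 3.98, 11.2 and 9.87 TPM to 24.5, 9.89 and 24.8. This call was lost with limma on log2(TPM + 1) (1.15, adjusted p = 0.057). Of the UM171 libraries the one rich in mitochondrial counts lies within the DMSO range. CSF3R fell by 0.53 (adjusted p = 0.011), a call lost with total count scaling (-0.36, adjusted p = 0.37), and had 20.03, 55.9 and 54.5 TPM in DMSO and 45.2, 15.3 and 47.9 in UM171. EPOR (0.43, adjusted p = 0.099) and CSF1R (0.30, adjusted p = 0.25) did not pass. Without the 2 libraries the values were 1.01 for CSF2RB, -0.48 for CSF3R, 0.40 for EPOR (adjusted p = 0.056) and 0.30 for CSF1R, which then passed (adjusted p = 0.00066).

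**Figure D4:**
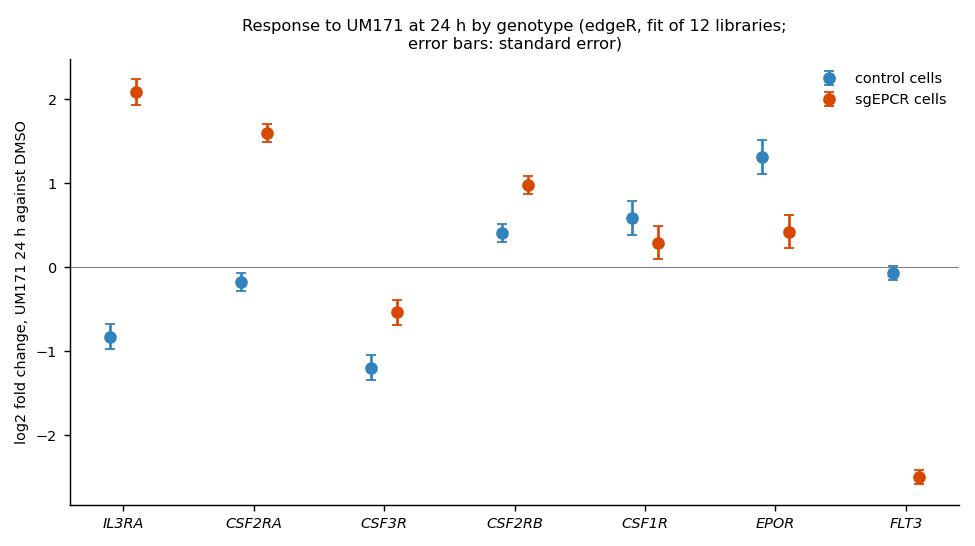
Log2 fold change at 24 h of UM171 against DMSO (vertical axis) of the 7 tested receptors in control and in sgEPCR cells, from a single fit of 12 libraries, with standard errors as bars. IL3RA lies at -0.82 in control and 2.08 in sgEPCR cells, and FLT3 at -0.07 and -2.50.

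The difference between both responses was tested as an interaction. It passed for 6 of the 7 receptors, positive (higher in sgEPCR) for 4 and negative for 2 (21.9% and 23.1% of all genes), and for 3 by the stricter limits (7.77%). IL3RA fell in control cells (-0.82) and rose in sgEPCR cells, a difference of 2.91 on the log2 scale (SE 0.22, adjusted p = 3e-06). For CSF2RA the responses were -0.18 and 1.60 and differed by 1.78 (SE 0.15, adjusted p = 7.1e-06), and for FLT3 they were -0.07 and -2.50 and differed by -2.43 (SE 0.12, adjusted p = 2.5e-07). These 3 also passed in every alternative that was run. CSF2RB (0.57, adjusted p = 0.0091), CSF3R (0.66, adjusted p = 0.024) and EPOR (-0.89, adjusted p = 0.026) passed here but not with limma or total count scaling. CSF1R differed by -0.29 (adjusted p = 0.44). Each response is taken against DMSO of its own genotype, labelled 72 h in control and 24 h in sgEPCR cells, so the interaction holds the DMSO difference between genotypes, from which time cannot be told apart. That difference was -1.40 for IL3RA, -1.23 for CSF2RA and 2.17 for FLT3, and under UM171 at 24 h in both it was 1.51, 0.55 and -0.27. Without the 2 libraries rich in mitochondrial counts all 7 passed, with 2.90 for IL3RA, 1.81 for CSF2RA, -2.46 for FLT3 and -0.27 for CSF1R (adjusted p = 0.008). In that fit more of all genes passed too, 33.6% higher and 35.6% lower.

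Under UM171 at 24 h, a comparison at matched labelled times, sgEPCR cells had more IL3RA than control cells by 1.51 on the log2 scale (SE 0.15, adjusted p = 2.5e-05), a call lost with limma on log2(TPM + 1) (1.25, adjusted p = 0.065). The log2 difference was 0.55 for CSF2RA (adjusted p = 0.0017) and -0.27 for FLT3 (adjusted p = 0.023), and neither passed with total count scaling (adjusted p = 0.18 and 0.13). With 2 higher and 1 lower, the receptors stood beside 20.8% and 22.2% of all genes, and with 1 past the stricter limits, beside 4.46%. CSF1R had -0.54 and did not pass (adjusted p = 0.05 after rounding), and neither did CSF2RB (0.15, adjusted p = 0.27), CSF3R (-0.04, adjusted p = 0.84) or EPOR (-0.20, adjusted p = 0.43). Without the 2 libraries rich in mitochondrial counts the differences were 1.64 for IL3RA, 0.64 for CSF2RA and -0.30 for FLT3, and CSF1R (-0.34, adjusted p = 7.9e-05), CSF2RB (0.26, adjusted p = 0.00016) and CSF3R (0.13, adjusted p = 0.028) also passed. More of all genes passed in that fit too, 32.4% higher and 35.9% lower. The ratio of IL3RA to CSF2RB was 0.972 ± 0.108 in sgEPCR DMSO and 2.18 ± 0.0969 in sgEPCR UM171, 2.24-fold apart (1.03 and 2.12 without the libraries rich in mitochondrial counts), whereas in control cells it was lower at 24 h than in DMSO.

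KIT had 10, 14 and 5 counts in sgEPCR DMSO and 0 in all 3 libraries of sgEPCR UM171, 9.89-fold lower by the same floor. Without the libraries rich in mitochondrial counts it had 19 counts against 0, 6.31-fold lower by that floor. The counts in DMSO are again taken as exact. With no filter on low counts the adjusted p was 0.0014 with them and 3.9e-05 without (edgeR). The interaction for KIT did not pass in that fit (adjusted p = 0.1).

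Of the 9 ligand genes, those for CSF2, IL3, IL5, CSF3 and EPO had at most 4 counts in any library, and IL3 had 0 in all, so these 5 could not be compared at this depth. The filter kept 4 ligands. CSF1, which encodes M-CSF, the ligand of CSF1R, had 0.55, 0.30 and 0.32 TPM in DMSO, 0.75, 0.87 and 1.14 after 24 h, 8.92, 8.24 and 5.82 after 48 h, and 15.6, 16.4 and 16.0 after 72 h. Its log2 fold change at 72 h was 5.65 (SE 0.16, adjusted p = 7.6e-15). In sgEPCR cells it went from 0.19, 0.40 and 0.52 TPM to 38.1, 17.0 and 38.4 within 24 h, a rise of 6.21 (SE 0.27, adjusted p = 3.5e-08) that exceeded the control response by 4.70 (adjusted p = 4.1e-06). Without the libraries rich in mitochondrial counts these were 6.21 and 4.75 for CSF1. KITLG, which encodes stem cell factor, the ligand of KIT, rose from 1.29, 1.01 and 1.04 TPM in DMSO to 7.57, 7.37 and 6.51 after 24 h (log2 fold change 2.78, SE 0.10, adjusted p = 1.6e-13). Its response differed in sgEPCR cells by -2.26 (adjusted p = 2.9e-06, and -2.26 without those libraries). There KITLG had 1.31, 2.71 and 2.70 TPM in DMSO, all above control DMSO, and 4.94, 2.25 and 3.84 in UM171. For the ligands too, the DMSO libraries are labelled 72 h in control and 24 h in sgEPCR cells. Time thus cannot be told apart from genotype in these differences. Mean TPM of IL34, the other ligand of CSF1R, was 1.16 in DMSO and 2.29, 2.12, 1.26 and 0.99 after 6, 24, 48 and 72 h. It was lower than in DMSO by 1.25 at 72 h (adjusted p = 0.00077). FLT3LG, the ligand of FLT3, had 4.44 in DMSO and 6.71, 3.49, 3.48 and 6.29 at the same times. It was higher by 0.47 at 72 h (adjusted p = 0.005).

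**Figure D5:**
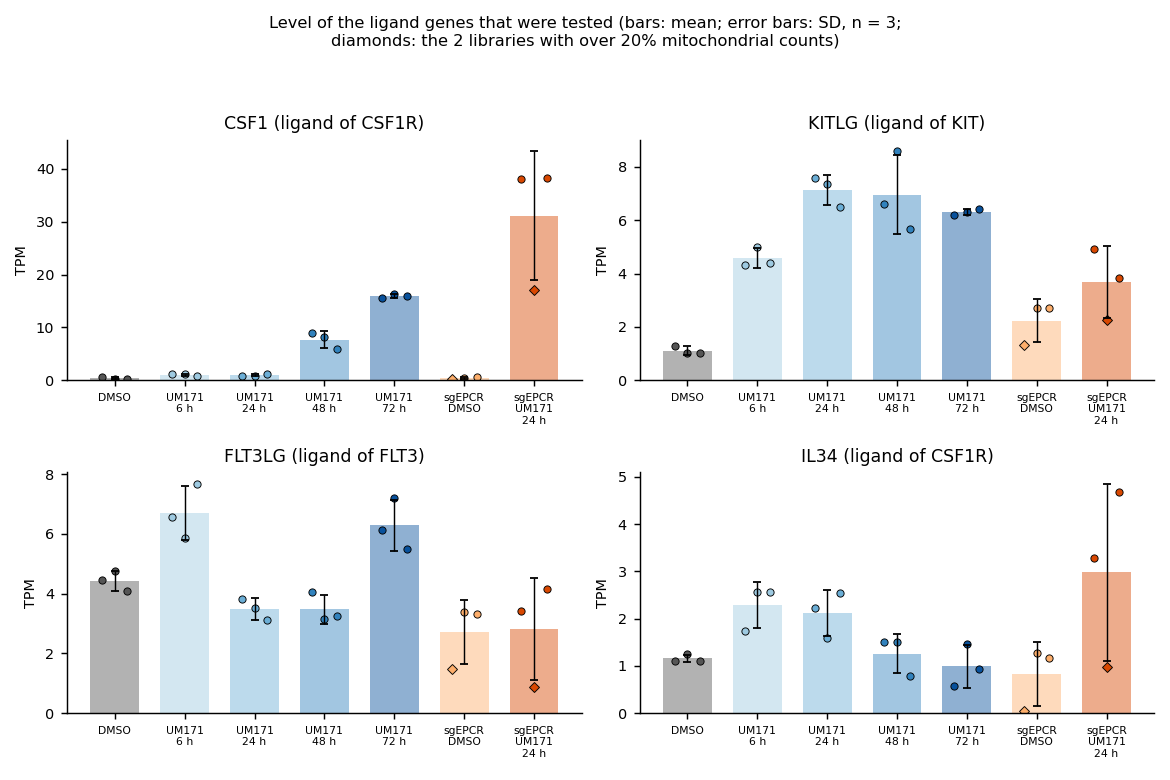
TPM of the 4 ligand genes that passed the filter (vertical axes, from 0) in the 7 groups, with bars for the mean, error bars for the SD of 3 libraries and a point for each library; diamonds are the 2 libraries with over 20% mitochondrial counts. CSF1 is under 2 TPM until 24 h in control cells and at 17.0 to 38.4 TPM in sgEPCR cells at 24 h.

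The signalling genes beneath the receptors were counted as lists, beside 38.1% of all genes higher and 37.6% lower at 72 h. Of 19 proximal signalling genes, 6 rose and 11 fell at 72 h (median -0.21 against 0.0005 over all genes). GAB2, a docking protein that links these receptors to PI3 kinase, rose by 3.18 (SE 0.06, adjusted p = 4.8e-17) and JAK3 by 2.10, while JAK2, the kinase bound by CSF2RB and EPOR, fell by 1.13 (SE 0.05, adjusted p = 4.4e-12) and the adaptor GRB2 by 0.91. Of 14 negative regulators, 8 rose and 5 fell (median 0.16), among them the ubiquitin ligase CBLB (0.83) and the adaptor DOK2 (-1.10). Of 12 known STAT5 target genes, 5 rose and 5 fell (median 0.07), with log2 changes of 1.74 for BCL6, 1.67 for PIM1 and -0.87 for MYC. In sgEPCR cells 6 of the 12 rose and 3 fell (27.0% and 25.1% of all genes), or 7 and 4 without the libraries rich in mitochondrial counts (34.5% and 36.4%), led by OSM (3.13, SE 0.41, adjusted p = 9.5e-05).

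Of 14 transcription factors known at receptor promoters, 11 were tested, and at 72 h 5 rose and 5 fell (median -0.09), beside 38.1% and 37.6% of all genes. MITF (3.50, SE 0.14, adjusted p = 3.3e-13), known from mast cells, where KIT is also expressed, and GATA2 (2.17, adjusted p = 2.8e-12) rose most. In sgEPCR cells under UM171, MITF rose by 3.39 (adjusted p = 4.9e-07) and TAL1 fell by 1.64 (adjusted p = 1.2e-07). SPI1, which encodes PU.1, was lower in sgEPCR cells than in control cells in DMSO (-0.77, adjusted p = 0.0014), and its response to UM171 was higher there by 0.94 (adjusted p = 0.0025). Without the libraries rich in mitochondrial counts these values were 3.30 for MITF, -1.69 for TAL1, and -0.75 and 1.08 for SPI1.

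Related receptors were counted in the same way, beside the same shares of all genes (38.1% and 37.6%). Of 24 other class I cytokine receptors, 20 were tested and 17 rose and 2 fell at 72 h (median 1.29, beside 0.92 for the 7 receptors), with log2 changes of 5.76 for IL2RB and -2.66 for IL6R (adjusted p = 9.2e-11 and 1.8e-17). CRLF2, the receptor chain for thymic stromal lymphopoietin, rose by 3.64 at 72 h and, in sgEPCR cells, by 4.71 at 24 h (SE 0.23, adjusted p = 7.6e-08), or 4.95 without the libraries rich in mitochondrial counts. Of 15 other receptor tyrosine kinases, 12 were tested and 11 rose and 1 fell at 72 h (median 1.797), with TIE1 up by 5.18 and PDGFRA, the platelet-derived growth factor receptor closest in structure to KIT, by 4.29 (adjusted p = 1.4e-10 and 1.3e-09).

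Across all 21 libraries, the genes whose log2 CPM followed each receptor most closely, out of 15621 compared, were IL21R for CSF2RB (Pearson r = 0.98), DLG4 for EPOR (0.97), USP2-AS1 for CSF3R (0.98), ADAMTS7 for IL3RA (0.97), LMTK3 for CSF1R (0.96), LRRC25 for CSF2RA (0.95) and MTSS2 for FLT3 (0.95). Among the receptors, CSF1R and EPOR gave r = 0.84, CSF2RA and IL3RA 0.82, and CSF2RB and FLT3 -0.93. These values describe 7 groups of 3 libraries and share the depth of each library.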

How the data were processed

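PolyA RNA was measured in 21 OCI-AML5 libraries (KAPA stranded kit per the labels and design text). For each library the authors deposited RSEM expected counts per gene, unnormalized, with reads shared between genes split. The authors also deposited TPM and FPKM, both scaled for length and depth, the mean transcript length of each gene, and credibility bounds of TPM, a score column that was not used. The submitters' processing notes name CASAVA 1.8.2, Trimmomatic 0.35, STAR 2.5.1b, RSEM 1.2.28 and GRCh38, while the study's methods name kallisto and sleuth for its own statistics.

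The 45 pseudoautosomal Y entries of 58219 were summed with their X counterparts (RSEM had split CSF2RA and IL3RA equally between both). Expected counts were rounded and tested with edgeR 4.0.16 in R 4.3.3 (filterByExpr, TMM, quasi-likelihood test, Benjamini-Hochberg adjustment over all tested genes), with 15 libraries and 16595 genes for the time course and 12 libraries and 15901 genes for the sgEPCR comparisons. The SE is the size of the log2 fold change divided by the root of F. Passed means an adjusted p under 0.05. Each library held between 24.3 and 51.5 M counts. The filter left out KIT and IL5RA, for which intervals cover counting error only and the floor only that of the group at 0. The fits were tested on simulated data.

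Members and gene lists were chosen with earlier results of these data known. The text names every member, up to 4 genes per list and comparison that passed with the largest change (average log2 CPM above 0), the genes nearest to each member by Pearson r, and PROCR. One receptor that the rule covers is not reported here. Alternatives included DESeq2 1.42.0 and limma 3.58.1 fitted to log2(TPM + 1) and log2(TPM + 0.1), total count and upper quartile scaling, other filters, a fit of all 21 libraries, a block for the replicate number, leaving out single libraries or the 2 with over 20% mitochondrial counts, a stricter threshold, FPKM in place of TPM, and ratios of counts. A block shared by both genotypes, leaving out mitochondrial genes, the split of calls by scaling, and lists, ligands, KIT and ratios without those 2 libraries were added after seeing the data. Promoter sequences are from RefSeq (GRCh38.p14), which had an entry for 8 of the 9 members, and gene positions from GENCODE 44.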

Additional observations from a re-analysis of the deposited data

Results flagged for a closer look

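For 6 receptors the response to 24 h of UM171 differed between sgEPCR and control cells by the interaction test (edgeR, adjusted p under 0.05). On the log2 scale, with a positive value meaning a higher response in sgEPCR cells, the difference was 2.91 for IL3RA, 1.78 for CSF2RA, -2.43 for FLT3, 0.57 for CSF2RB, 0.66 for CSF3R and -0.89 for EPOR. The control response is taken against DMSO labelled 72 h and the sgEPCR response against DMSO labelled 24 h, so time cannot be told apart from genotype in these differences. In DMSO alone the genotypes differed by -1.40 for IL3RA, -1.23 for CSF2RA and 2.17 for FLT3, and under UM171 at 24 h by 1.51, 0.55 and -0.27. The IL3RA response changed direction, from -0.82 in control to 2.08 in sgEPCR cells. Without the 2 libraries with over 20% mitochondrial counts these differences were 2.90, 1.81, -2.46, 0.62, 0.72 and -0.88, and all 6 passed. In that fit 33.6% of all genes were higher and 35.6% lower. CSF2RB, CSF3R and EPOR lost the call with limma on log2(TPM + 1), with total count scaling and with the replicate number as a block.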

How the results depend on the processing

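FLT3, IL3RA and CSF2RA kept their calls in the sgEPCR response, in DMSO between genotypes and in the interaction under every alternative run, as did EPOR at 24, 48 and 72 h. Over all comparisons, 653 recomputed log2 fold changes of members (single libraries left out aside) kept direction and side of the threshold, 59 lost and 28 gained a call, and 9 reversed. The cause of these changes was not tested, beyond the stricter threshold, which by its construction calls fewer. No fold of mean TPM moved by more than its SD with FPKM, nor did any ratio when taken from counts.

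Under an adjusted p of 0.0001 and over 2-fold, the number of members called was 0 (6 h), 2 (24 h), 2 (48 h) and 3 (72 h), 1, 1 and 2 in the successive steps, 3 in the sgEPCR response, 3 and 1 between genotypes in DMSO and in UM171, and 3 in the interaction. Limma, with either pseudocount, called 3 in the interaction, 3 between genotypes in DMSO, 3 in the sgEPCR response and 0 between genotypes in UM171. By direction, 3 higher and 2 lower in the sgEPCR response became 3 and 1 with total count scaling (27.6% and 12.3% of all genes). Between genotypes in UM171, 2 and 1 became 1 and 0 with total count scaling (13.2% and 18.2%). In the interaction, 4 and 2 became 4 and 1 with upper quartile scaling (26.2% and 19.1%). Total count scaling called 3 in the interaction (19.8% of all genes higher and 13.4% lower) and 1 between genotypes in UM171. At 6 h, upper quartile scaling (38.3% of all genes higher and 22.3% lower) and a minimum of 10 counts in every library each called 7. A fit of all 21 libraries called 3 from 48 to 72 h, as did leaving out the second 72 h library. Leaving out the 2 libraries with over 20% mitochondrial counts called 6 between genotypes in UM171 (32.4% of all genes higher and 35.9% lower). The limma counts and the strict counts of the steps have no share of all genes beside them. The same holds for the minimum of 10 counts, the fit of all 21 libraries and the fit without the second 72 h library. Such counts are not read as results about the receptors.

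Leaving out single libraries, the members called ranged from 3 to 5 (6 h), 5 to 6 (24 h), 6 to 6 (48 h) and 7 to 7 (72 h), 6 to 6 and 6 to 6 in the first steps and 3 to 5 in the last, and from 5 to 7 in the sgEPCR response, 5 to 6 and 2 to 4 between genotypes in DMSO and UM171, and 4 to 7 in the interaction. No share of all genes stands beside these ranges, so they are not read as results about the receptors.

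Reversals concerned differences near 0. The CSF2RB step from 6 to 24 h (0.01) became -0.0301 with at least 10 counts, -0.12 with limma (-0.122 and -0.117), -0.159 with total count and -0.120 with upper quartile scaling, and ranged from -0.0206 to 0.041 without single libraries. CSF2RB between genotypes in UM171 became -0.12 and -0.11 with limma, and CSF3R (-0.04) became 0.0346 with upper quartile scaling, 0.1184 without sgEPCR UM171 replicate 2 (its range without single libraries was -0.1373 to 0.1184) and 0.13 without the 2 libraries rich in mitochondrial counts. Without the third 48 h library, the CSF2RA step from 24 to 48 h became 0.006 (range without single libraries -0.1314 to 0.006) and IL3RA at 48 h 0.0016 (range -0.049 to 0.0016).

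Pairing by replicate number was not shown, and whether a number names a clone is not in the labels. Same-numbered DMSO and UM171 libraries of sgEPCR cells correlated at -0.61, -0.61 and 0.45 in their deviations (the first pairs each hold a library with over 20% mitochondrial counts) and control pairs of DMSO and UM171 libraries between -0.07 and 0.07. With the replicate number as a block within genotype, 3 members instead of 6 passed in the interaction (CSF2RB 0.57, CSF3R 0.65 and EPOR -0.87 no longer did), and no other call changed. That count has no share of all genes beside it and is not read as a result about the receptors.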

Other observations

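CSF2RA and IL3RA lie beside CRLF2 in the pseudoautosomal region of X, and this group was chosen after its values were seen. In the response of sgEPCR cells to UM171 the log2 fold changes were 4.71 for CRLF2, 1.60 for CSF2RA and 2.08 for IL3RA, and between genotypes in DMSO they were -1.77, -1.23 and -1.40. Their neighbours SLC25A6 (-0.44, adjusted p = 0.014) and P2RY8 (-0.40, adjusted p = 0.029) fell in the sgEPCR response. Of the 23 pseudoautosomal genes tested, 7 rose and 5 fell there (27.0% and 25.1% of all genes), with a median of 0.17, and 0 were higher and 5 lower between genotypes in DMSO (17.4% and 16.3%), with a median of -0.26. Between genotypes in UM171, 9 were higher and 1 lower (20.8% and 22.2%), with a median of 0.27, and in the interaction 11 were higher and 1 lower (21.9% and 23.1%), with a median of 0.66. Without the 2 libraries with over 20% mitochondrial counts, 11 rose and 7 fell in the sgEPCR response (34.5% and 36.4% of all genes). In the interaction 13 were then higher and 5 lower (33.6% and 35.6%). Between genotypes in DMSO 5 were then higher and 9 lower (30.3% and 30%), and in UM171 13 were higher and 6 lower (32.4% and 35.9%).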
